A study of Mus musculus with 60 samples.

Results

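The WNT pathway genes examined here were the mouse genes whose symbol names a WNT ligand, a Frizzled receptor, a secreted WNT inhibitor of the Dkk, Sfrp or Wif families, an R-spondin, the co-receptors Lrp5 and Lrp6, the ligand-modifying enzyme Porcn, the scaffold proteins Apc, Axin1 and Axin2, β-catenin (Ctnnb1), or a TCF/LEF transcription factor. The rule was applied to gene symbols alone and found 53 protein-coding genes in GENCODE M21. Of these, 52 had a peak assigned in at least 1 list, out of 16994 gene symbols with a peak in the whole series, and Axin1 had none. WNT ligands are secreted lipid-modified proteins that bind a Frizzled receptor together with Lrp5 or Lrp6. Binding keeps β-catenin from being degraded by the complex that Axin and Apc organise, and β-catenin then acts with TCF/LEF factors on target genes. In the hippocampus the pathway is known for its part in neurogenesis of the dentate gyrus and in synapse formation.

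The data were CUT&RUN-seq peak lists, in which an antibody directs a nuclease to cut out the DNA around a histone modification. H4K8ac (acetylation of histone H4 at lysine 8) is a permissive mark, and H3K27me3 (trimethylation of histone H3 at lysine 27) is a mark of Polycomb repression. Nuclei came from the hippocampus of male Emx1-NuTRAP mice, in which Emx1-Cre switches on tags on the nuclei of mainly excitatory neurons and also of some neural progenitors. All mice carried these alleles. Exercised mice were housed with a wheel between postnatal days 21 and 41, and sedentary mice were not. Nuclei were prepared from both hippocampi together with RNA (SIT) or without RNA from a single hippocampus, which was the left (left separate) or the right (right separate). These preparations are called arms. The labels gave 4 samples per mark and condition in SIT and 3 in each separate arm. Each of the 12 lists, 1 for each mark, condition and arm, pooled samples of its group, so there were no replicate values and no read counts. The methods left out exercised H4K8ac libraries with a high false discovery rate, 3 from the separate arms and 1 from SIT. How those 3 divide between left and right is not given in the sources used here, and other mice of both conditions were left out for their RNA. Any of the lists may therefore rest on fewer samples than the labels give.

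The lists differed in length, from 9899 to 25693 peaks for H3K27me3 and from 12168 to 38136 for H4K8ac. The methods state a minimum sequencing depth for the libraries, but the read depth behind each list is not given. The label of the nuclei was checked against marker genes. Of 7 excitatory neuron markers, 4 to 7 were in an H4K8ac list, and of 6 inhibitory neuron markers 1 or 2 were. Of 4 astrocyte markers, 1 to 4 were in an H4K8ac list, with 4 in sedentary left separate, 3 in exercised SIT and in sedentary right separate, and 1 in the others. Oligodendrocyte markers were listed for 1 or 2 of 5 and microglial markers for 0 or 1 of 4. H3K27me3 lists held 2 or 3 of the 7 excitatory markers, 3 to 5 of the 6 inhibitory markers, 3 of the 4 astrocyte markers, 2 or 3 of the 5 oligodendrocyte markers and 0 or 1 of the 4 microglial markers. Start sites lay in an H3K27me3 peak for 4 to 6 of the inhibitory, 0 to 2 of the excitatory, 2 of the astrocyte, 2 or 3 of the oligodendrocyte and 0 or 1 of the microglial markers. The part of other cell types in the results was not tested.

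The WNT pathway genes fell into sets by mark, which overlapped, and 19 of the 53 had both marks in at least 1 list each. H3K27me3 was assigned to 28 of the 53 genes (52.8%) in all 6 of its lists. These were 12 of 19 ligands, 6 of 9 secreted inhibitors, 5 of 10 Frizzled receptors and 2 of 4 R-spondins. The rest were 3 of the 5 genes for β-catenin and the TCF/LEF factors. H4K8ac was assigned to 12 genes (22.6%) in all 6 of its lists, among them Wnt4, Wnt7b, Axin2 and Ctnnb1. Peaks of 6 genes, Wnt4 and Wnt7b included, shared bases across all 6 lists, while those of Axin2 and Ctnnb1 did not. The count of 12 became 6 with equal numbers of peaks within each arm and 1 with promoter peaks alone. It was 5 with the widest 50% of each list or without distal intergenic peaks. Over all 21842 coding genes, 10.7% had H3K27me3 and 12.5% had H4K8ac in all 6 lists. In the list of 50 other WNT pathway genes, such as Dvl1, Gsk3b and Lgr5, the shares were 16.0% and 22.0%. The sequences of a few start sites and peaks from these sets follow, before the values.

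The first sequences are the 250 bases before the RefSeq start of 4 genes in GRCm38.p6, the genome build of the lists, written 5′ to 3′ in the direction of transcription with CpG dinucleotides in capitals. They were chosen because the start sites of Wnt1 and Wnt8b lay in H3K27me3 in all 6 lists, while those of Axin2 and Ctnnb1 lay in it in none.
Wnt1 (chr15:98789607-98789856, plus strand): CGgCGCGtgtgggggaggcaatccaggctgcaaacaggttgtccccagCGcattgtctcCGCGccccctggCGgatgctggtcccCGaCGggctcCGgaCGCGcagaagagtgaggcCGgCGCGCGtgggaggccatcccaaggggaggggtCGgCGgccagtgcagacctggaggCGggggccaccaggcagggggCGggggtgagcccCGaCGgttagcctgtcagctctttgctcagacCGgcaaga
Wnt8b (chr19:44493222-44493471, plus strand): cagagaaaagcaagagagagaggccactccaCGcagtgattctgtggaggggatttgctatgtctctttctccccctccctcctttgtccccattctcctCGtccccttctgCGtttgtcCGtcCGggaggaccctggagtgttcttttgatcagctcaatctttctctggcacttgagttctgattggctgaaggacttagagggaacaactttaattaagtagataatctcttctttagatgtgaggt
Axin2 (chr11:108920099-108920348, plus strand): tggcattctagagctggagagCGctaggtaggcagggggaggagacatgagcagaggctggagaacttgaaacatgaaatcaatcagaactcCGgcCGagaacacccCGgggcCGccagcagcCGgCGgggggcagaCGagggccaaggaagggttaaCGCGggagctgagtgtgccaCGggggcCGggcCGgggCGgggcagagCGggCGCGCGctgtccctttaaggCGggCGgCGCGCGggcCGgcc
Ctnnb1 (chr9:120933150-120933399, plus strand): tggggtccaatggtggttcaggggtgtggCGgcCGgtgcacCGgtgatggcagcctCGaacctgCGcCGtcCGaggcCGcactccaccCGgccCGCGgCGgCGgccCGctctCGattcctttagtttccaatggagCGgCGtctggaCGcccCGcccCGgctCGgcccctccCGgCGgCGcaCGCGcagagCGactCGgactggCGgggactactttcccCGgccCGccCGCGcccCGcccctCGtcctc

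These sequences differed in CpG content. Wnt1 held 23 CpGs, Wnt8b 5, Axin2 24 and Ctnnb1 35. RefSeq promoter sequences were found for 34 of the 53 genes, and each was identical to the genome at its position. The 18 promoters whose start lay in H3K27me3 in all 6 lists had a median of 21.5 CpGs and a range of 5 to 41. The 9 promoters whose start lay in it in no list had a median of 35 and a range of 12 to 48. The ranges of these sets overlapped. The median over 16515 coding genes was 10, and it was 11 both for coding genes whose start lay in H3K27me3 in all 6 lists and for those in no list.

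The next sequences are the central 300 bases of regions that lay in H4K8ac peaks of the named gene in all 6 lists. They are shown because such regions were far from the start site of each gene. Capitals mark CpGs at Wnt4 and Wnt10a and a TCF/LEF motif at Lef1.
Wnt4 (chr4:137304593-137304892, plus strand): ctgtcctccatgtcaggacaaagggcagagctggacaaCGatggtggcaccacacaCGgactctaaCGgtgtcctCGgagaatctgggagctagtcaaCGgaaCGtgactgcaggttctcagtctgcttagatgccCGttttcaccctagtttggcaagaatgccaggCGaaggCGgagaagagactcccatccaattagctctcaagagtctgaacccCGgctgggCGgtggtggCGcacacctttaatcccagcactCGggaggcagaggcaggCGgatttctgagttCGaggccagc
Wnt10a (chr1:74806968-74807267, plus strand): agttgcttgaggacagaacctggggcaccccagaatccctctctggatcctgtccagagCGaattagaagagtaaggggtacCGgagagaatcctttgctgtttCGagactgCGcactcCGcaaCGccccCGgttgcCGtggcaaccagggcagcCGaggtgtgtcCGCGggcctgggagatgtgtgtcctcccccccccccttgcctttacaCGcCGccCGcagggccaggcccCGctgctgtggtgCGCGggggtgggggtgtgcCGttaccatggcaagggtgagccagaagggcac
Lef1 (chr3:131085007-131085306, plus strand): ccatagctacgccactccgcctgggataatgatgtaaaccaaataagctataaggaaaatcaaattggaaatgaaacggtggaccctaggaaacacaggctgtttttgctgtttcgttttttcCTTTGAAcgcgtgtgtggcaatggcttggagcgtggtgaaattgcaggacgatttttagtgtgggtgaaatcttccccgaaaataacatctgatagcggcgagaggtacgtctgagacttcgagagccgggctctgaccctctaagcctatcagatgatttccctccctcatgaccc

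The motifs searched were CTTTGAT and CTTTGAA, which TCF/LEF factors can bind, on both strands and both cannot match at the same position. Of 7 regions of at least 300 bp in H4K8ac peaks of a WNT pathway gene in all 6 lists, the region at Lef1 alone held such a motif in its central 300 bases. Among the 3412 regions of that length in all 6 H4K8ac lists genome-wide, 11.4% did. In the 250 bases before the start, 2 of the 34 promoters held the motif, Wnt11 and Dkk1, against 6.86% of coding genes. Both sites are printed here with the motif in capitals. The Dkk1 site lay upstream of the RefSeq start but in the 5′ untranslated region of a GENCODE transcript.
Wnt11 (chr7:98835050-98835079, plus strand): gacgtgggcggATCAAAGcgacggtccgcg
Dkk1 (chr19:30549595-30549624, minus strand): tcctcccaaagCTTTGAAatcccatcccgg
A match is a description of the letters, not of a bound site.

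**Figure D1:**
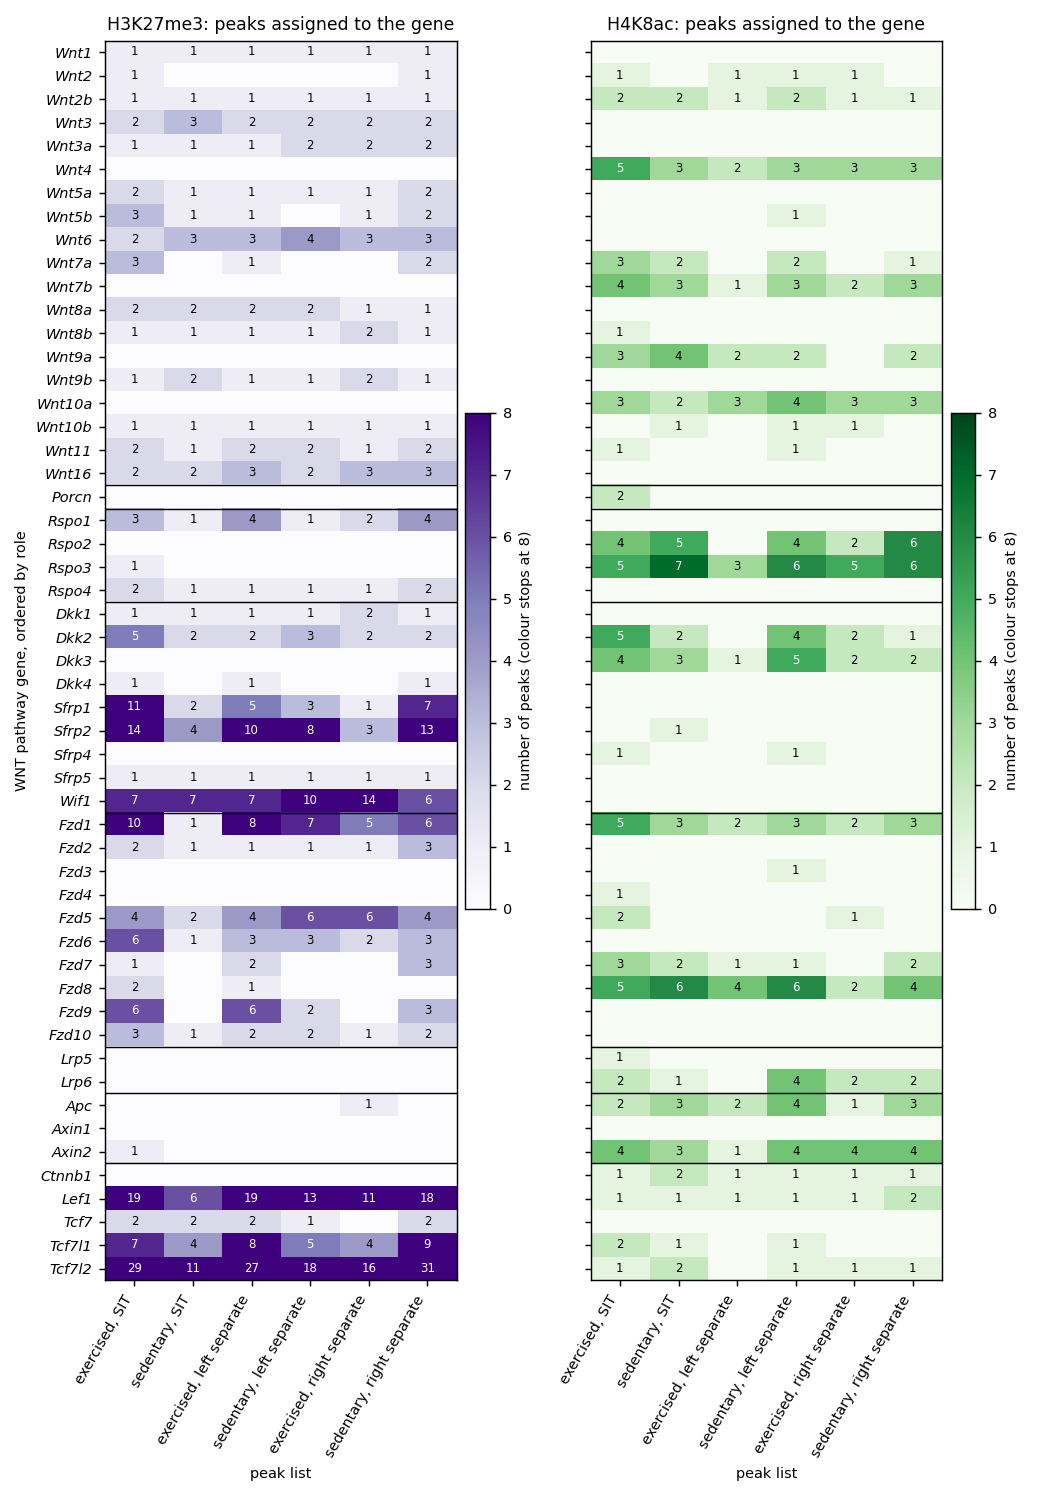
The number of peaks assigned to each of the 53 WNT pathway genes (rows, ordered by role, with black lines between roles) in each of the 6 H3K27me3 lists (left, purple) and the 6 H4K8ac lists (right, green). Empty cells are 0. The 28 genes with H3K27me3 in all 6 lists fill whole rows on the left, and 17 of them have an empty row on the right.

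Among the 19 WNT ligands, 12 had an H3K27me3 peak in all 6 lists, and the start site of 10 of these lay inside a peak each time. To describe coverage without the assignment of peaks to genes, the share of bases in a peak was taken within 3 kb on either side of the start. The lowest, median and highest values over the 6 H3K27me3 lists are given for each gene. For Wnt3 they were 92.6, 100 and 100%. For Wnt3a they were 94.8, 100 and 100%, and for Wnt9b 91.4, 100 and 100%. The start sites of these 3 ligands were thus nearly covered in each list.

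Wnt8b, a ligand known from the developing forebrain, was covered by 76.9, 93.1 and 100%. Its H3K27me3 peak was 1 run of 36.2 kb in the exercised SIT list, longer than the 20802 bp gene itself. Wnt16 was covered by 81.5, 92.0 and 100%, and Wnt6 by 57.0, 84.5 and 100%. For Wnt2b the values were 72.6, 78.8 and 99.7%, and for Wnt10b 44.9, 73.5 and 91.2%. All of these starts lay inside a peak in each list. Wnt1, a ligand of midbrain patterning, was covered by 43.5, 59.9 and 75.3%, and Wnt11, which acts mainly outside the β-catenin branch, by 60.8, 69.7 and 100%.

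Wnt8a and Wnt5a had an H3K27me3 peak in all 6 lists but a less covered start. Wnt8a was covered by 20.6, 62.8 and 100%, with its start inside a peak in 4 lists. Wnt5a, the best known ligand of the branch without β-catenin, was covered by 0.0, 10.3 and 37.7%, and its start lay in no peak. The 8 peaks assigned to Wnt5a were annotated to promoters of its transcripts.

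The other ligands divided by mark. Wnt4, Wnt7b, Wnt9a and Wnt10a had no H3K27me3 peak in any list. Of these, Wnt4, Wnt7b and Wnt10a had H4K8ac in all 6 lists and Wnt9a in 5. Wnt2, Wnt5b and Wnt7a had H3K27me3 in 2, 5 and 3 lists. No ligand had its start site inside an H4K8ac peak in any list.

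The H4K8ac peaks of the ligands lay mostly away from the starts, between genes or in annotated exons, introns and untranslated regions. Such an annotation was not always within the ligand gene. The exon peaks of Wnt2b and Wnt8b and the intron peak of Wnt5b lay outside the bounds of these genes. Wnt9a differed, with a promoter peak in each of its 5 lists, the nearest 97 bp past the start, and Wnt7b had a promoter peak in 1 list. Wnt4, at chr4:137277489-137299726, had 2 to 5 peaks per list, the nearest 12.2 kb from the start. A stretch of 1088 bp, 26.7 to 27.8 kb past the start and beyond the end of the gene, lay in a peak in all 6 lists. Wnt7b, a ligand with a known part in dendrite growth, had 1 to 4 peaks per list, and 316 bp lay in all 6, between 33.6 and 33.9 kb into the gene, which is intronic. Wnt10a had 2 to 4 peaks per list, with 1533 bp in all 6 at 14.8 to 16.4 kb past its start, beyond its end. Wnt2b had 1 or 2 peaks per list, with 1257 bp in all 6 upstream, from -32.3 to -31.0 kb. Peaks were assigned by the nearest transcript, which does not show the gene that a distal region acts on.

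Some ligand genes lie side by side, and the mark differed within 2 of 4 such pairs. The start of Wnt3a is 16178 bp from that of Wnt9a on chromosome 11, in the opposite direction. The Wnt3a start lay in H3K27me3 in all 6 lists and the Wnt9a start in none, while H4K8ac peaks were assigned to Wnt9a in 5 lists and to Wnt3a in none. The start of Wnt6 is 19624 bp upstream of that of Wnt10a on chromosome 1. Wnt6 lay in H3K27me3 in all 6 lists and had no H4K8ac, whereas Wnt10a had H4K8ac in all 6 and no H3K27me3.

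In the other pairs both starts lay in H3K27me3. Those of Wnt1 and Wnt10b, 11707 bp apart on chromosome 15, and of Wnt3 and Wnt9b, 24329 bp apart on chromosome 11, were inside separate peaks in all 6 lists. Wnt10b also had H4K8ac peaks in 3 lists, all annotated to its 3′ UTR. The smallest gap between an H4K8ac and an H3K27me3 peak of Wnt10b was 1661 bp, in the sedentary SIT list.

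**Figure D2:**
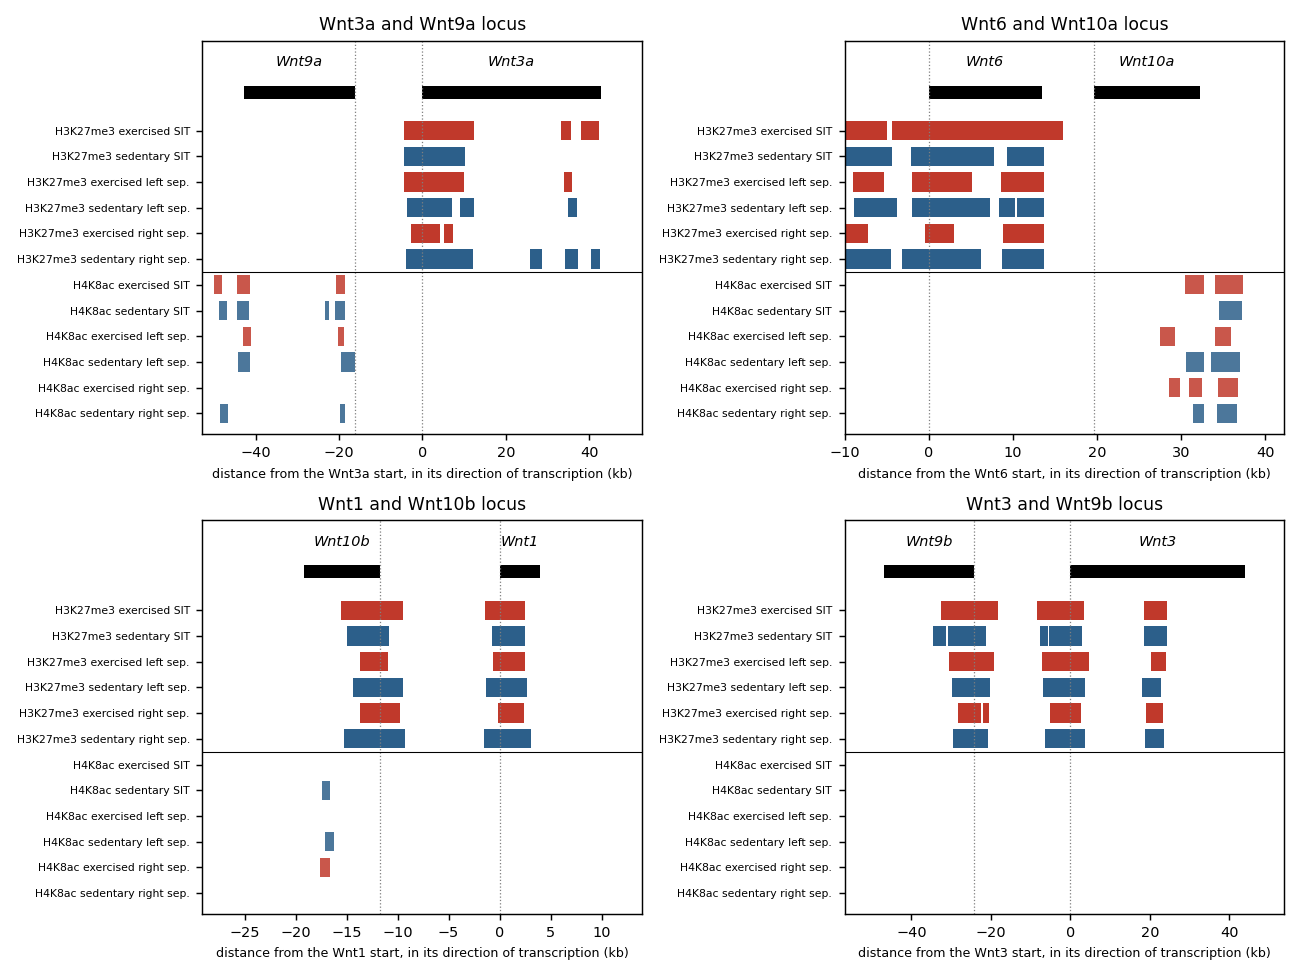
Peaks of each list around 4 pairs of neighbouring WNT ligand genes, against the distance in kb from the start of the first gene in its direction of transcription. Black bars are genes, dotted lines their start sites, and coloured bars peaks (red exercised, blue sedentary), with H3K27me3 in the upper 6 rows and H4K8ac in the lower 6. H3K27me3 covers the Wnt3a and Wnt6 starts in all 6 lists and stops before those of Wnt9a and Wnt10a.

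Porcn, the enzyme that attaches the lipid to WNT ligands, had no H3K27me3, and H4K8ac in the exercised SIT list alone. The R-spondins, which amplify WNT signals at the receptor, differed among themselves. Rspo1 and Rspo4 had H3K27me3 in all 6 lists, with 75.9, 99.6 and 100% (Rspo1) and 47.6, 78.2 and 100% (Rspo4) of the start window covered, and neither had H4K8ac in any list. Rspo2 had H4K8ac in 5 lists and no H3K27me3. Rspo3 had H4K8ac in all 6 lists, with 3 to 7 peaks each, and H3K27me3 in the exercised SIT list alone.

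Rspo3 had the widest H4K8ac peak of any of the genes, 9.39 kb in the exercised SIT list. Its widest peak measured 4573 bp in the sedentary SIT list, 4573 bp and 8634 bp in the exercised and sedentary left separate lists, and 3885 and 6706 bp in the right separate lists. All of these widest peaks lay far upstream. A stretch of 3816 bp at chr10:29823506-29827321, from -291 to -288 kb, lay in an Rspo3 peak in all 6 lists. Nearer the gene, Rspo3 had 6 H4K8ac promoter peaks over 4 lists, none over the start. The next widest H4K8ac peaks were assigned to Ctnnb1, 5.67 kb, and Rspo2, 5.53 kb, both in the exercised SIT list.

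Of the 9 secreted inhibitors, 6 had H3K27me3 in all 6 lists, with the start inside a peak each time. Wif1, which binds WNT ligands directly, was covered over 100% of its start window in all 6 lists. Its widest peak was 47820 bp in the exercised and 29623 bp in the sedentary SIT list, 42589 and 20769 bp in the left separate lists, and 16357 and 50334 bp in the right separate lists. The last, 50.3 kb, was the widest H3K27me3 peak of the 53 genes. The peaks of Wif1 shared 47.9 kb across all 6 lists, in 10 stretches. No H4K8ac peak was assigned to Wif1.

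Sfrp proteins bind WNT ligands outside the cell. Sfrp2 was covered by 97.8, 100 and 100%, Sfrp1 by 59.8, 95.5 and 100%, and Sfrp5 by 69.2, 72.4 and 77.6%. Sfrp2 had 3 to 14 peaks per list, and Sfrp5 had 1 in each. Dkk1, an inhibitor that binds the co-receptors, was covered by 67.8, 100 and 100%, and Dkk2 by 34.1, 50.9 and 63.3%. Dkk2 also had 14 H4K8ac peaks over 5 lists, the nearest 19.0 kb from a start site.

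The remaining inhibitors were Dkk3, Dkk4 and Sfrp4. Dkk3, a divergent member of its family, had H4K8ac in all 6 lists, 1 to 5 peaks each and none nearer than 5.14 kb, and no H3K27me3. Dkk4 had H3K27me3 in 3 lists, in peaks 5.91 kb or more from its start. Sfrp4 had H4K8ac in 2 lists, with the start inside the peak in 1 of them.

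Of the 10 Frizzled receptors, 5 had H3K27me3 in all 6 lists. Fzd2 was covered by 54.0, 86.9 and 100% and Fzd6 by 73.1, 89.5 and 100%. Fzd5 was covered by 38.5, 64.8 and 84.9%, with its start inside a peak in 3 lists. Fzd1 differed from these. The 37 H3K27me3 peaks assigned to it were all distal intergenic, the nearest 13.8 kb away, and none of its start window was covered in any list. Fzd1 also had H4K8ac in all 6 lists, but only 1 of these 18 peaks was a promoter peak. The median distance of the 18 from a start was 107 kb.

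Fzd10 showed the limit of the assignment. Its start window was covered by 84.7, 96.2 and 100% and its start lay in H3K27me3 in all 6 lists. In each of them that peak was assigned to Fzd10os, the gene on the opposite strand, and the 11 peaks assigned to Fzd10 itself were elsewhere. CUT&RUN peaks carry no strand, so the 2 genes cannot be told apart. No other start site in a peak was assigned to a different gene in any list.

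Elsewhere among the receptors H3K27me3 was in fewer lists or in none. Fzd3 and Fzd4 had no H3K27me3, and an H4K8ac promoter peak in 1 list each. Fzd8 had H4K8ac in all 6 lists, with 18.7 to 29.1% of its start window covered in each, and H3K27me3 in 2 lists, no nearer than 629 kb. Fzd8 was the gene with H4K8ac in its start window in the most lists. The co-receptors Lrp5 and Lrp6 had no H3K27me3. Lrp6 had H4K8ac in 5 lists and Lrp5 in 1.

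Downstream of the receptor, the scaffold proteins and β-catenin had at most 1 H3K27me3 peak each over all 6 lists, and Axin1 had none. Apc had H4K8ac in all 6 lists, 1 to 4 peaks each, and 1 H3K27me3 peak, 57.4 kb away. Axin2, a feedback inhibitor and well known WNT target, had H4K8ac in all 6 lists, 1 to 4 peaks each, and 1 H3K27me3 peak, in the exercised SIT list. Ctnnb1 had H4K8ac in all 6 lists and no H3K27me3. In 5 of the lists a Ctnnb1 peak lay about 40 kb past the start of its assigned transcript (40209 to 40984 bp). These peaks lay beyond the end of the gene (chr9:120929216-120960507). In the exercised left separate list the peak was 1614 bp past the start of its assigned transcript. That peak, at chr9:120958481-120959994, was near the end of the gene, and the start used for the window was at 120933400.

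The TCF/LEF factors differed in the length of H3K27me3, with a widest peak of 32.1 kb at Tcf7l2, 25.3 kb at Lef1, 9.95 kb at Tcf7l1 and 5.26 kb at Tcf7. Lef1 was covered by 100% in all 6 lists, with 19 and 6 peaks in the exercised and sedentary SIT lists, 19 and 13 in the left separate lists and 11 and 18 in the right separate lists. Tcf7l2 had 29 and 11, 27 and 18, and 16 and 31 peaks in the same order, totalling 54.3 to 221 kb per list. Tcf7l2 was covered by 17.1, 93.7 and 100% around its start. Its widest peak was the third widest of the 53 genes, after those of Wif1 and Wnt8b. Tcf7l1, known mainly as a repressor, was covered by 54.0, 73.8 and 85.6%. Tcf7 had H3K27me3 in 5 lists, and its start lay in none of the peaks.

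Lef1 had both marks in all 6 lists. An H4K8ac peak lay upstream of the start in each list, and 983 bp of it, chr3:131084666-131085648 (-25.8 to -24.8 kb), were common to all 6. This is the region whose centre is printed above with the CTTTGAA motif. H3K27me3 peaks lay over it in the exercised SIT list (chr3:131082504-131086799) and in the sedentary right separate list (chr3:131082996-131085830). In the latter list a second H4K8ac peak of Lef1, at chr3:130945647-130947456, also overlapped H3K27me3. In the other 4 lists the nearest H3K27me3 peak was 5081 to 7815 bp away.

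Over all 53 genes and 6 pairs of lists, Lef1 in these 2 lists was the only case in which peaks of both marks assigned to the same WNT pathway gene overlapped. Between 5 and 15 genes per pair had both marks listed (9.43 to 28.3%), against 2.95 to 10.9% of coding genes. Wnt2b and Fzd1 had both in all 6 pairs, with gaps of 13892 to 28772 bp and 6325 to 165319 bp. Dkk2 and Tcf7l2 had both in 5 pairs, with smallest gaps of 17778 and 2234 bp. Tcf7l1, Wnt10b and Fzd7 had both in 3 pairs, and Wnt7a, Wnt11, Fzd5 and Fzd8 in 2. No start site lay in peaks of both marks in any pair. Nuclei were pooled, so marks on the same nuclei and on different nuclei cannot be told apart.

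**Figure D3:**
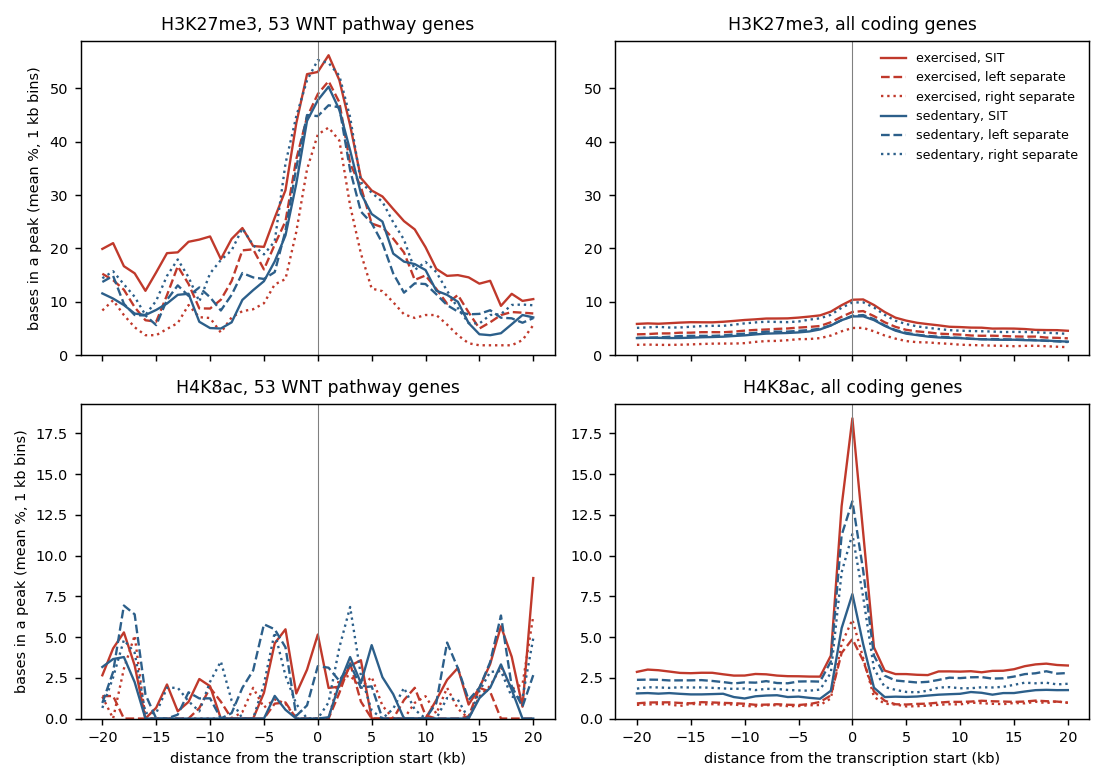
Mean share of bases in a peak (vertical, %) in 1 kb bins against the distance from the start site (horizontal, kb, positive in the direction of transcription), for the 53 WNT pathway genes (left) and all coding genes (right), H3K27me3 above and H4K8ac below. Each line is 1 list, red for exercised and blue for sedentary, solid for SIT, dashed for left separate and dotted for right separate. At the start itself H3K27me3 covered 41.3 to 55.2% for the WNT pathway genes and 5.12 to 10.4% for coding genes, and H4K8ac covered 0.0 to 5.16% and 4.88 to 18.4%.

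The plot by distance from the start summarises where the marks were. H3K27me3 over the WNT pathway genes was highest at the start and fell off on both sides. The mean over the 3 kb window was 34.3 to 50.4% per list, against 4.43 to 9.31% for coding genes. The start lay inside an H3K27me3 peak for 22 to 29 of the 53 genes per list and in all 6 lists for 21 (39.6%), against 4.29% of coding genes. H4K8ac stayed low and rose towards the start in exercised SIT and sedentary left separate alone. It covered 4.20 and 2.95% within 1 kb of the start in these lists, against 1.63 and 1.90% within 10 kb. In the other lists it covered 0.0 to 0.0245% within 1 kb. The start lay inside an H4K8ac peak for 0 to 3 genes per list and in all 6 lists for none, against 4.74 to 18.7% of coding genes per list and 1.07% in all 6. The 4 genes whose start lay in an H4K8ac peak in any list, 1 each, were Sfrp4, Fzd4, Fzd8 and Apc. No test was made of the difference from other genes.

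The position of H4K8ac peaks also differed from that of all peaks in the same lists. Promoters held 5.08 to 14.9% of the H4K8ac peaks of WNT pathway genes per list, and 19.3 to 26.5% of all H4K8ac peaks. Their median distance from a start was 24.6 to 37.3 kb, against 19.7 to 26.6 kb for all peaks, and was the larger of the 2 in each list. For H3K27me3 the promoter share was 23.9 to 47.1%, against 17.9 to 25.4% for all peaks.

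The next comparison was between exercised and sedentary mice within each arm, which addresses the question of the study, whether early-life exercise changes these marks. Most WNT pathway genes with H3K27me3 had it in both conditions, and the differences turned direction between arms. In SIT, 38 genes were listed in exercised and 30 in sedentary mice, against 24.6 and 14.6% of coding genes. The numbers were 35 and 30 for left separate, against 19.8 and 17.8%, and 30 and 35 for right separate, against 13.3 and 23.1%. The direction in each arm was thus that of all coding genes.

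In SIT, 8 of the 38 genes with H3K27me3 in either list were in the exercised list alone (Wnt2, Wnt7a, Rspo3, Dkk4, Fzd7, Fzd8, Fzd9 and Axin2) and 0 in the sedentary list alone. Over all genes with a peak in either list, 41.4% were in the exercised list alone and 1.02% in the sedentary list alone. In the left separate arm, 5 of 35 were in the exercised list alone (Wnt5b, Wnt7a, Dkk4, Fzd7 and Fzd8) and 0 in the sedentary, against 18.5% and 9.13% of all genes. In the right separate arm, 1 of 36 was in the exercised list alone (Apc) and 6 in the sedentary (Wnt2, Wnt7a, Dkk4, Fzd7, Fzd9 and Tcf7), against 3.12% and 43.6%. The shares for WNT pathway genes were 21.1 and 0.0% (SIT), 14.3 and 0.0% (left separate) and 2.78 and 16.7% (right separate), each below the share for all genes.

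No WNT pathway gene had H3K27me3 in the same condition alone in all 3 arms. Wnt2, Wnt7a, Dkk4, Fzd7 and Fzd9 were found in the exercised list alone in at least 1 arm and in the sedentary list alone in the right separate arm. The start window of Wnt7a, a ligand of synapse formation, was covered by 40.7% in exercised and 0.0% in sedentary SIT mice, by 58.2 and 0.0% for left separate, and by 0.0 and 45.0% for right separate. For Wnt2 the values were 60.9 and 0.0%, 0.0 and 0.0%, and 0.0 and 38.9%. Fzd8, in the exercised list alone in 2 arms, was not found in the sedentary list in any arm.

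Most of the WNT pathway genes with H3K27me3 in some lists followed the order of list length. The 3 longest H3K27me3 lists were exercised SIT, sedentary right separate and exercised left separate. Wnt7a, Dkk4 and Fzd7 were listed in exactly these 3, Wnt2 in the 2 longest and Fzd9 in the 4 longest. Of the 11 WNT pathway genes with H3K27me3 in 1 to 5 lists, 8 were in the longest lists without a gap (72.7%), against 52.1% of such coding genes. Wnt5b, Fzd8 and Apc were not. For H4K8ac it was 12 of 20 genes, against 38.4% of such coding genes. With equal numbers of peaks in each pair of lists, taken by width, the H3K27me3 numbers in SIT became 1 exercised alone and 2 sedentary alone of 31, against 14.6% and 12% of all genes. In the right separate arm they became 2 and 1 of 31, against 13.3% and 20.7%. In the left separate arm they went from 5 and 0 to 4 and 0 of 34, against 13.7% and 14.6%. The part of read depth was not tested.

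**Figure D4:**
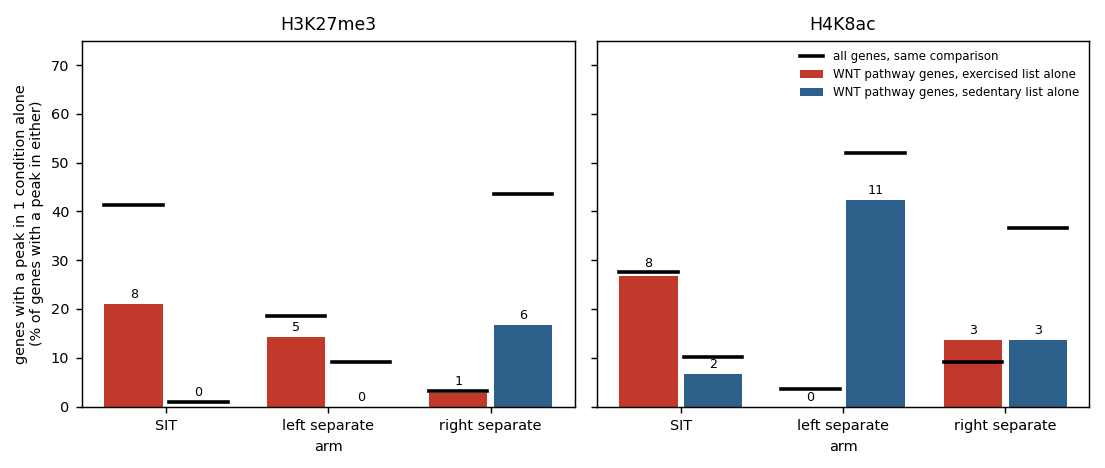
Share of genes with a peak in the exercised list alone (red) or the sedentary list alone (blue), in % of genes with a peak in either list of the arm, for the WNT pathway genes (bars, with their number above) and for all genes (black lines), for H3K27me3 (left) and H4K8ac (right) in the 3 arms. The numbers of WNT pathway genes are 8 and 0, 5 and 0, and 1 and 6 for H3K27me3, and 8 and 2, 0 and 11, and 3 and 3 for H4K8ac.

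H4K8ac also differed in direction between arms. The part of the libraries left out in these differences was not tested. In SIT, 28 WNT pathway genes were listed in exercised and 22 in sedentary mice, against 41.3 and 32.9% of coding genes. Left separate lists held 15 and 26, against 19.6 and 39.5%, and right separate lists 19 each, against 22.2 and 31.7%. The shifts in SIT and left separate thus went the same way as those of all coding genes. H4K8ac was thus listed for 15 to 28 genes in exercised mice and for 19 to 26 in sedentary mice, and these ranges overlapped.

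In SIT, 8 of 30 genes with H4K8ac in either list were in the exercised list alone (Wnt2, Wnt8b, Wnt11, Porcn, Sfrp4, Fzd4, Fzd5 and Lrp5) and 2 in the sedentary (Wnt10b and Sfrp2), against 27.5% and 10.1% of all genes. In the left separate arm, 0 of 26 were in the exercised list alone and 11 in the sedentary (Wnt5b, Wnt7a, Wnt10b, Wnt11, Rspo2, Dkk2, Sfrp4, Fzd3, Lrp6, Tcf7l1 and Tcf7l2), against 3.58% and 51.9%. With equal numbers of peaks in the lists of that arm they became 4 and 2 of 17, against 23.9% and 24% of all genes. In the right separate arm, 3 of 22 were in the exercised list alone (Wnt2, Wnt10b and Fzd5) and 3 in the sedentary (Wnt7a, Wnt9a and Fzd7), against 9.14% and 36.7%. With equal numbers of peaks these became 7 and 2 of 21, against 25.6% and 22.1%, and the SIT numbers 7 and 3 of 29, against 22.7% and 14.8%. The shares for WNT pathway genes, 26.7 and 6.67%, 0.0 and 42.3%, and 13.6 and 13.6%, were below those for all genes except in the exercised right separate list.

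No gene had H4K8ac in the same condition alone in all 3 arms. Wnt2 and Fzd5 were in the exercised list alone in SIT and in the right separate arm, and never in the sedentary list alone. In the left separate arm Wnt2 was in both lists. The 4 H4K8ac peaks of Wnt2 were all distal intergenic, at least 49.5 kb from its start. The 3 of Fzd5 were annotated to exons but lay outside Fzd5, at least 15.9 kb from its start. Wnt7a was in the sedentary list alone in both separate arms and in both lists of SIT. Wnt10b, Wnt11 and Sfrp4 turned direction between arms.

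The mean difference in the share of WNT pathway genes listed, exercised minus sedentary, was 5.03 percentage points for H3K27me3 (SD 12.8, n = 3 arms), with 15.1 for SIT, 9.43 for left separate and -9.43 for right separate. An exact permutation test (two-sided) that flipped the sign of the difference in each arm gave p = 0.75, which Benjamini-Hochberg adjustment over 2 tests raised to 1.0. For H4K8ac the mean was -3.14 points (SD 16.3, n = 3 arms, with 11.3, -20.8 and 0.0), with exact permutation p = 1.0 and adjusted p = 1.0. The smallest p this design allows is 0.25. The direction for H4K8ac turned with equal numbers of peaks (6.92), with the start required to lie in a peak (1.26) and without the left separate arm (5.66), and that for H3K27me3 turned with the start required to lie in a peak (-1.89). The differences were smaller than their spread between arms. The same differences over all coding genes had a mean of 0.771 points for H3K27me3 (10, 2.02 and -9.75) and of -7.01 for H4K8ac (8.37, -19.9 and -9.52).

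Whether the same regions carried the mark was read from the overlap of peaks between conditions, which requires at least 1 bp. In SIT, 66 of 163 exercised H3K27me3 peaks of WNT pathway genes overlapped a sedentary peak (40.5%, 95% Wilson interval 33.3 to 48.2%), and 67 of 68 sedentary peaks overlapped an exercised one (98.5%, 92.1 to 99.7%). The shares were 69.1% of 136 exercised and 92.5% of 106 sedentary peaks for left separate, and 95.7% of 94 and 45.9% of 146 for right separate. Nearly all peaks of the shorter list thus touched a peak of the longer list. With a reciprocal overlap of 50% these shares of the shorter lists were lower, 73.5% (SIT), 61.3% (left separate) and 30.9% (right separate). The shares over all peaks were 37.2 and 98.1%, 61.4 and 82.1%, and 94.7 and 31.6%. The intervals cover counting error over peaks only, not differences between mice.

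For H4K8ac fewer peaks of the shorter list in each arm touched a peak of the longer list. In SIT, 39.2% of 74 exercised peaks (28.9 to 50.6%) and 50.8% of 59 sedentary peaks (38.4 to 63.2%) did. For left separate it was 69.2% of 26 and 25.4% of 67, and for right separate 64.9% of 37 and 46.0% of 50. The corresponding shares of all H4K8ac peaks were 43.9 and 59.0%, 73.1 and 25.2%, and 68.0 and 35.6%.

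Between arms of the same condition, a larger share of the bases in a peak was common to both arms for H3K27me3 than for H4K8ac. The peaks of these genes were also wider for H3K27me3, with medians of 3143.5 to 5263 bp per list against 1274 to 1809.5 bp. The part of peak width in this difference was not tested. Within 10 kb of the WNT pathway genes, the bases in a peak in both arms made up 0.445 to 0.743 of the bases in a peak in either for H3K27me3, and 0.142 to 0.271 for H4K8ac. The exercised right separate list, the shortest for H3K27me3, gave the 2 lowest H3K27me3 values, 0.445 with SIT and 0.509 with the left separate arm.

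Of the 50 other WNT pathway genes, 8 had H3K27me3 in all 6 lists (Gsk3b, Ror2, Nkd1, Lgr5, Notum, Tle3, Tle4 and Sost) and 27 in none. Nkd1, Notum and Sost encode antagonists of the pathway, Lgr5 a receptor for R-spondins, and Tle3 and Tle4 corepressors that bind TCF/LEF factors. H4K8ac was in all 6 lists for 11 (Ror1, Celsr1, Prickle1, Prickle2, Lgr6, Wls, Tle1, Bcl9, Ctnnbip1, Daam1 and Tnik). Wls carries WNT ligands to the cell surface. For H3K27me3, 10 and 0 of the 20 genes listed in either SIT list were in the exercised and sedentary list alone, against 41.4% and 1.02% of all genes. Left separate gave 0 and 4 of 19, against 18.5% and 9.13%, and right separate 0 and 9 of 18, against 3.12% and 43.6%. For H4K8ac the numbers were 6 and 3 of 34 in SIT, against 27.5% and 10.1% of all genes, 0 and 13 of 29 for left separate, against 3.58% and 51.9%, and 0 and 8 of 23 for right separate, against 9.14% and 36.7%. No gene of this list was in the same condition alone in all 3 arms for either mark.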

How the data were processed

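Nuclei of 60 mouse hippocampus samples were profiled by CUT&RUN-seq, and 20 IgG samples are not analysed here. Alignment by the authors used Bowtie2, and SEACR (stringent, 0.01) gave the peaks, which they annotated with ChIPseeker on mm10 with promoters within 3 kb of a start. They left out 4 exercised H4K8ac libraries, 3 separate and 1 SIT, and how libraries were joined into the 12 lists is not given in the sources used here. Of the deposited columns, start, end, width, annotation, distance to the start and symbol were used. The lists hold no counts, scores or p-values, so no count model was fitted and each list is 1 unit. Start sites came from GENCODE M21 on the same build. A gene was listed where a peak carried its symbol. The share of bases in a peak was taken within 3 kb of the start. Interval counts were checked on simulated data. Groups came from the labels. Named genes were those with a mark in all 6 lists, with both marks in at least 2 pairs of lists, with the 3 widest peaks of a mark, or with no peak. Others named were chosen after their values were seen. The genes and lists were chosen with earlier results of these data known. Analyses used Python 3.11.15, pandas 2.3.3 and scipy 1.17.1.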

Additional observations from a re-analysis of the deposited data

Results flagged for a closer look

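The number of WNT pathway genes listed, exercised minus sedentary, went in opposite directions between arms. For H4K8ac it was 6 (SIT) and -11 (left separate). For H3K27me3 it was 8 (SIT), 5 (left separate) and -5 (right separate). Each arm has 1 list per condition, so the difference between arms was not tested. As shares, the differences were 11.3 and -20.8 points for H4K8ac, against 8.37 and -19.9 over all coding genes. For H3K27me3 they were 15.1, 9.43 and -9.43, against 10, 2.02 and -9.75. Each went the same way as that of all coding genes, and the longer list held more of the genes.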

How the results depend on the processing

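No paired analysis was possible because each list pools its samples and holds no column per replicate. The mean difference in H4K8ac genes listed, -3.14 points, became 6.92 with equal numbers of peaks within each arm (exact permutation p = 0.25) and 1.26 when the start had to lie in a peak, and ran from -10.4 (without SIT) to 5.66 (without left separate) when 1 arm was left out. For H3K27me3 the 5.03 points became 2.52 with equal numbers, 1.89 with promoter peaks alone and -1.89 when the start had to lie in a peak, and ran from 0.0 to 12.3 with 1 arm left out. Genes in the exercised and sedentary list alone moved as follows. With promoter peaks alone, H4K8ac gave 5 and 1 in SIT, 1 and 6 in left separate and 0 exercised in right separate, and H3K27me3 gave 3 exercised in SIT and 0 in right separate. Without distal intergenic peaks, H3K27me3 gave 5 exercised in SIT. With the widest 50% of each list, H4K8ac gave 5 exercised in right separate and H3K27me3 2 sedentary in left separate. With equal numbers, H4K8ac gave 4 and 2 in left separate and 7 exercised in right separate, and H3K27me3 gave 1 and 2 in SIT and 2 and 1 in right separate. With the start in a peak, H4K8ac gave 3 and 0 in SIT, 1 sedentary in left separate and 0 and 0 in right separate, and H3K27me3 gave 3 exercised in SIT, 2 and 1 in left separate and 0 exercised in right separate. Requiring a reciprocal overlap of 50%, the shared exercised and sedentary peaks fell to 21.6 and 27.1% (SIT), 42.3 and 16.4% (left separate) and 43.2 and 32.0% (right separate) for H4K8ac, and to 30.7 and 73.5%, 47.8 and 61.3%, and 30.9 and 20.5% for H3K27me3. The cause was not tested. Genes with H3K27me3 in all 6 lists numbered 19 to 28 over these settings and those with H4K8ac 0 (start in a peak) to 12. Read depth per list is not given, so a gene outside a list may carry the mark below detection.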
